A study of Mus musculus with 16 samples.

Results

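The Foxp2 nuclei were excitatory nuclei of the hippocampal dissection that held at least 3 unique molecular identifiers (UMIs) of Foxp2. They also held at least 2 UMIs summed over Hs3st2, Rmst, Dpp4 and Col5a1, at least 1 UMI of the vesicular glutamate transporters Slc17a7 and Slc17a6, at most 1 UMI of Gad1 and Gad2, at most 1 of Prox1, at most 1 of Vwc2l and 0 of Ccn2. Of 147873 nuclei with at least 500 UMIs, at least 300 genes and at most 5% mitochondrial UMIs, 992 (0.671%) met this rule. The values of these 12 genes chose the nuclei, so their levels are given as a description only.

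Nuclei from the hippocampus of female mice at 9 months of age had been sequenced singly in 16 libraries. Mice with intact Ch25h (Ch25h+/+) and mice without it (Ch25h-/-) were each sampled with tau (Tau+) and without it (Tau-), giving 4 groups of 4 libraries. Ch25h encodes cholesterol 25-hydroxylase, the enzyme that makes 25-hydroxycholesterol. Tau+ and Tau- are the labels' only words on tau: no line, transgene or promoter is named, and the control groups carry no other stated allele. The labels do not say whether each library came from a separate animal, so the p-values measure the spread between these libraries. Replicate numbers follow the order of deposition and were not used to pair libraries across groups. The design crosses tau status with the loss of Ch25h.

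Foxp2 is a forkhead transcription factor that marks corticothalamic neurons of cortical layer 6, the deep-layer cells that send excitatory axons back to the thalamus. Tle4, a transcriptional corepressor, and the transcription factors Tbr1, Sox5, Fezf2 and Zfpm2 take part in specifying such neurons, and Syt6, Rprm and Hs3st4 are widely used as their markers. A hippocampal dissection usually carries some of the neighbouring cortex and the retrohippocampal region, where deep-layer cells of this kind lie. 25-hydroxycholesterol holds back the processing of SREBP2, the transcription factor that switches on the genes of cholesterol synthesis and uptake.

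The 16 libraries held 22 to 162 Foxp2 nuclei each, and 207007 to 1817368 UMIs in them. A Foxp2 nucleus had a median of 9093 UMIs and 3416 genes, from 1267 to 43222 UMIs, and no cell barcode among them was shared between libraries. At the edge of the rule, 309 nuclei held exactly 3 Foxp2 UMIs, and 500 nuclei that met every other condition held exactly 2 and were left out. The highest Foxp2 count, 83 UMIs, was far above the median of 4. Of the other genes of the rule, Hs3st2, which encodes a heparan sulfate sulfotransferase, had a UMI in 73.4% of the Foxp2 nuclei, the long noncoding RNA Rmst in 58.9%, the collagen gene Col5a1 in 51.9% and the peptidase gene Dpp4 in 31.6%. Slc17a7 alone was seen in 949 nuclei, Slc17a6 alone in 21 and both in 22.

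Pooled over the libraries, Foxp2 stood at 582 CPM (UMI counts scaled to a common total) in the Foxp2 nuclei, with single libraries between 406 and 767 CPM. All other excitatory nuclei together had 18.8 CPM, inhibitory nuclei 25.8 CPM, oligodendrocyte nuclei 8.20 CPM and CA1 nuclei 3.68 CPM. The closest class was the 186 nuclei chosen on Ccn2, a marker of cortical layer 6b, at 85.6 CPM. The gate of the CA1 nuclei allowed at most 1 Foxp2 UMI, and that of the Ccn2 nuclei set no limit. This order is thus partly set by the gates. Barcodes with fewer than 100 UMIs, which mostly hold free RNA, had a median of 17.7 CPM over the libraries.

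The markers of layer 6 corticothalamic neurons that the rule did not use were mostly higher in these nuclei than in the other excitatory nuclei together. Of 11 such markers, 7 were more than 2-fold above all other excitatory nuclei, and 7 were higher in each of the 16 libraries. Hs3st4, another heparan sulfate sulfotransferase gene, had 2292 CPM against 712, Zfpm2 1359 CPM against 498, and Tle4 434 CPM against 136. Among genes with fewer UMIs, Tbr1 had 32.2 CPM against 7.92, Fezf2 27.3 against 11.5, Rprm 23.6 against 3.24 and Syt6 30.0 against 2.25. Syt6 was higher in 15 libraries and had no UMI in the remaining one. Sox5, higher in all 16 libraries, stood at 633 CPM against 347. These markers were not all highest here: in the Ccn2 nuclei Tle4 had 736 CPM and Hs3st4 2746 CPM, and Syt6 had 30.5 CPM in inhibitory nuclei. Tbr1 was close, at 30.2 CPM in the Ccn2 nuclei.

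The other 3 markers of the list did not separate the nuclei. Bcl11b, a transcription factor of deep-layer projection neurons, had 153 CPM against 150 and was higher in 10 libraries. Crym had 84.1 CPM against 70.7, and Ntsr1, a receptor gene used to target corticothalamic neurons in cortex, had only 5.86 CPM, against 4.13, and no UMI in 3 libraries. In the plot of these markers by library, every Foxp2 value of Tle4, Hs3st4, Tbr1, Sox5 and Zfpm2 lies above every value of the other excitatory nuclei. The ranges of Fezf2, Rprm and Syt6 overlap at their ends, and those of Crym, Bcl11b and Ntsr1 overlap widely.

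**Figure D1:**
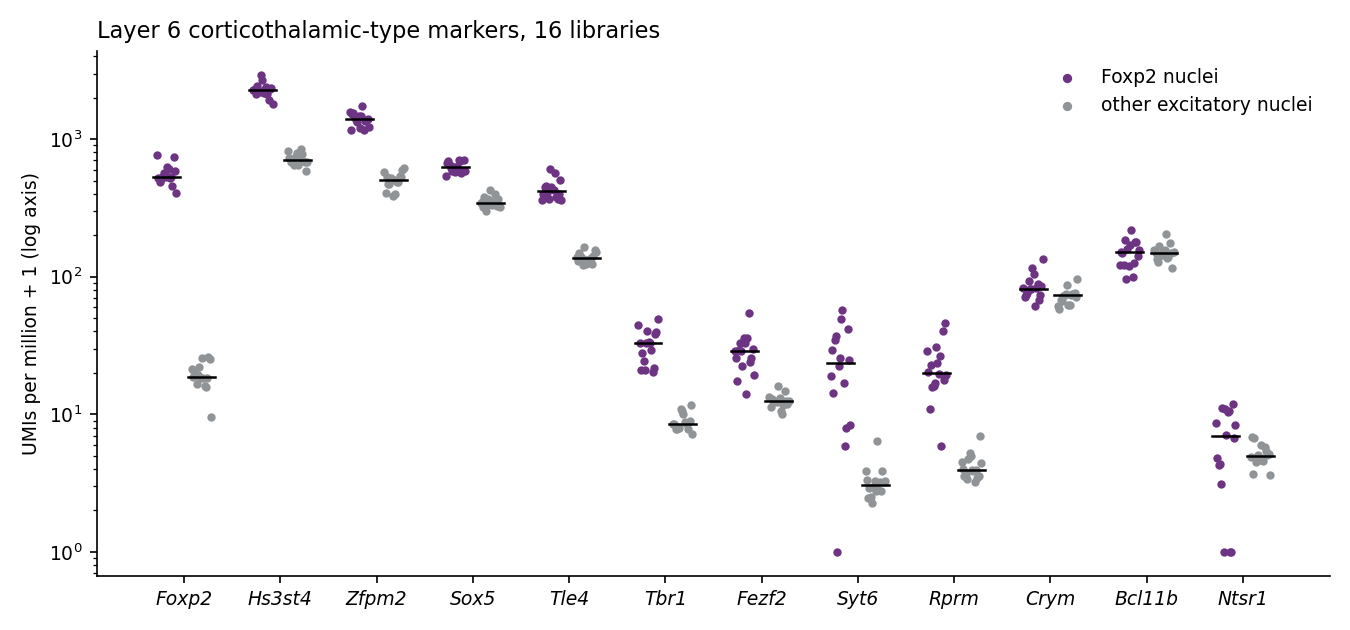
Levels of Foxp2 and 11 further layer 6 corticothalamic markers, in CPM plus 1 on a log axis, in the Foxp2 nuclei (purple) and in all other excitatory nuclei (grey). Each point is 1 of the 16 libraries and the black line is the median of the libraries. For Tle4 the medians are 417 and 136 CPM with no overlap, and for Bcl11b 149 and 147 CPM with the libraries mixed.

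To set detection at equal depth, each nucleus was thinned to 3000 UMIs, which left out 8 Foxp2 nuclei, 23 CA1 nuclei and 18761 oligodendrocyte nuclei, whose unthinned medians were 9093, 11196 and 1667 UMIs. Of 21039 oligodendrocyte nuclei only the 2278 deepest were thus kept, and their shares describe these alone. Tle4 had a UMI in 68.8% of the thinned Foxp2 nuclei (95% Wilson interval 65.8 to 71.6, counting error only), in 16.5% of CA1 nuclei and in 27.3% of the kept oligodendrocyte nuclei. Before thinning, these shares were 91.4%, 42.6% and 12.7%. Hs3st4 had a UMI in 95.4% of thinned Foxp2 nuclei, 49.5% of CA1 nuclei and 14.4% of oligodendrocyte nuclei. Syt6 was seen in 8.64% of thinned Foxp2 nuclei, 0.315% of CA1 nuclei and 0.571% of oligodendrocyte nuclei.

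Markers of other cells differed in direction within most lists. Of the layer 6b list, Cplx3 (0.894 CPM), Nxph4 (0.497 CPM) and Trh (0 CPM) were near or at 0 in the Foxp2 nuclei. In other excitatory nuclei they were as sparse, at 0.517, 0.267 and 0.194 CPM, and Moxd1 had 0.596 CPM against 4.35. Lpar1, a lysophosphatidic acid receptor gene from the same list, had 51.2 CPM against 8.79 in other excitatory nuclei. The rule left out nuclei with any UMI of Ccn2, itself a marker of layer 6b. Prox1, Glis3 and Stxbp6 of the dentate gyrus granule cells and Cpne4, Iyd and Galnt3 of CA3 were lower in the Foxp2 nuclei of all 16 libraries, Prox1 through the rule. Nnat, on the CA3 list too, had 222 CPM against 153 and was higher in 14 libraries. Of the CA1 list, Fibcd1 (4.97 CPM against 16.9) and Wfs1 (3.28 against 15) were low, while Mpped1 had 196 against 93.5 and was higher in all 16 libraries. Cux2 of the upper cortical layers had 11.0 CPM against 57.4.

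Among other deep-layer lists, Sulf1, which is listed for layer 6 intratelencephalic cells, had 120 CPM against 19.1, but Osr1 of that list had 0.497 against 1.28. The 5 near-projecting layer 5 markers outside the rule had a median ratio of 0.77. Among them Tshz2 had 382 CPM against 496 and Htr2c 145 against 129. Of the layer 5 list, Rorb (135 CPM against 42.9), Deptor (56.7 against 22.4) and Parm1 (138 against 82.1) were higher in at least 15 libraries, and Etv1, at 72.4 against 112, was lower in 13. Markers of intercalated or striatal GABA neurons had a median ratio of 2.29 to the other excitatory nuclei: Meis2 had 433 CPM against 171, higher in all 16 libraries, and the dopamine receptor gene Drd1 7.85 against 1.70, higher in 15. Tshz1 of the same list, at 9.54 against 13.7, was lower in 12. The 6 microglial markers had a median ratio of 1.06, and Cldn5 of endothelial cells had no UMI in any library.

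Of the 3492 genes outside the rule with at least 50 CPM in the Foxp2 nuclei, the 25 with the largest ratio of Foxp2 nuclei to other excitatory nuclei had ratios of 3.34 to 13.2. Each was higher in all 16 libraries, and for 24 of them the Foxp2 nuclei of no library came down to the level of any library's other excitatory nuclei. They were chosen for that ratio, so no test applies. Arhgap25, which encodes a GTPase activating protein, led these with 54.5 CPM against 4.14. Markers under that level, such as Syt6, were not ranked, and Sulf1 and Lpar1 of the marker lists are among the 25. Hs3st5, a further member of the heparan sulfate 3-O-sulfotransferases beside Hs3st2 and Hs3st4, had 249 CPM against 23.2. Hs3st5 was seen in 39.5% of Foxp2 nuclei at 3000 UMIs, in 4.56% of CA1 nuclei and in 1.67% of oligodendrocyte nuclei.

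Several of the leading genes encode surface proteins and channels. Cdh18, a cadherin gene, had 1652 CPM against 222, and Cntnap4, a neurexin family gene, 454 against 56.5. Dpp10, which encodes an auxiliary subunit of Kv4 potassium channels, stood at 12696 CPM against 2235. The leading genes also held the receptor genes Grik3 for kainate (369 CPM against 64.0), Oprm1 for mu opioids (348 against 79.2), Htr1f for serotonin (487 against 120) and the glutamate receptor genes Grm8 (1118 against 295) and Grm3 (624 against 169). Of the 25, 8 were highest in the Foxp2 nuclei among 8 gated classes, and 14 were higher in the Ccn2 nuclei, Cdh18 at 3108 CPM and Oprm1 at 663 CPM among them. The 5 genes whose CPM over the 8 classes had the highest Spearman correlation with Foxp2, among 3496 genes, were Sesn3 (0.952), Mindy2, Tasor2 and Khdc4 (each 0.929) and Grik3 (0.905). These classes share libraries, and Tasor2 and Khdc4 differed little between classes. The gates of the Vwc2l Tshz2, CA1 and CA3 nuclei limited Foxp2 itself, so its order over the classes is partly set by the gates.

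Within the Foxp2 nuclei, Rmst was uneven: it had 0 UMIs in 408 nuclei (41.1%), 1 to 2 UMIs in 168 (16.9%) and 3 or more in 416 (41.9%). The median depths of these ranges were 9421, 8626 and 9118 UMIs. The ranges were cut from a single gene and are not cell types, and because the rule sums Rmst with Hs3st2, Dpp4 and Col5a1, the levels of those genes are tied to the cut.

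Other genes divided with Rmst in nearly every library. Of 3738 genes at 50 CPM or more in either range, 57 were higher without Rmst and 66 were higher with 3 or more Rmst UMIs in at least 15 of the 16 libraries. With Rmst, Htr2c, a serotonin receptor gene, had 317 CPM against 26.3 without it, Rorb 246 against 30.7, Adamtsl1 731 against 87.2 and Sntb1 94.1 against 5.95. Galntl6 (2515 CPM against 585) and the axon guidance ligand gene Slit2 (374 against 122) went the same way. The first 5 were higher with Rmst in all 16 libraries and Slit2 in 15.

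On the other side, Sema3a, a repulsive guidance ligand gene, had 87.0 CPM without Rmst and 15.9 with it. The potassium channel gene Kcnt2 had 238 CPM against 70.6, the postsynaptic scaffold gene Homer1 640 against 233, and the growth factor gene Fgf10 60.4 against 22.7. Syt6 had 54.2 CPM without Rmst and 7.58 with it, and was higher without it in 13 libraries. Of the other corticothalamic markers, Tle4 (426 and 446 CPM), Hs3st4 (2309 and 2340 CPM) and Tbr1 (31.1 and 34.0 CPM) were about as high in both ranges, while the sparse Ntsr1 had 9.38 CPM without Rmst and 2.44 with it and was higher without it in 11 libraries. Syt6 was thus mostly in nuclei without Rmst, and Rorb and Htr2c mostly in nuclei with it. Tshz2 also went with Rmst, at 516 CPM against 136 without it, and was higher with it in 12 libraries. So did Vwc2l (14.7 against 4.12) and Slc17a6 (12.7 against 1.60), both genes of the rule, each in 14 libraries. Rmst itself had 299 CPM in nuclei gated on Vwc2l and Tshz2, against 327 CPM in the Foxp2 nuclei.

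**Figure D2:**
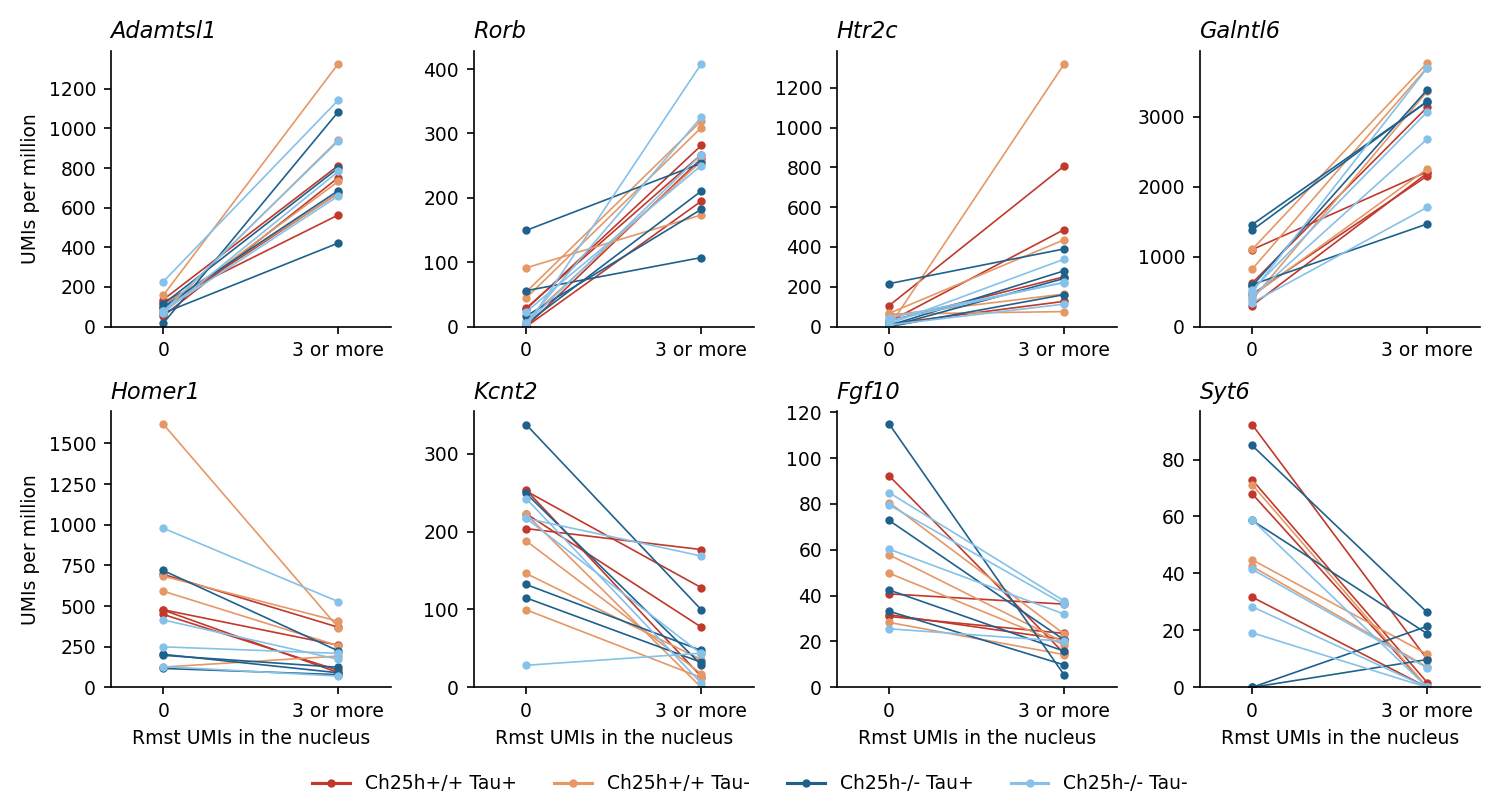
Levels of 8 genes, in CPM, in Foxp2 nuclei with 0 Rmst UMIs and in those with 3 or more, each line joining the values of 1 library, coloured by group. Adamtsl1, Rorb, Htr2c and Galntl6 were higher with Rmst in all 16 libraries, and Homer1, Kcnt2 and Fgf10 were higher without it in at least 15.

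A few nuclei lay apart in their transmitter genes. The 21 nuclei with Slc17a6 and no Slc17a7 UMI came from 12 libraries and had a median of 5992 UMIs. In them Tcf7l2, a transcription factor gene expressed widely in thalamus, had 438 CPM against 6.05 in the other Foxp2 nuclei, Zfhx3 1141 against 42.6 and Tfap2d 146 against 0.20. The Kcnc2 potassium channel gene stood at 1190 CPM against 61.8. The 63 Tcf7l2 UMIs of the 21 nuclei came from 15 of them, and the 21 Tfap2d UMIs from 8. These genes were chosen for their ratio, and Tcf7l2 also had 103 CPM in oligodendrocyte nuclei. Over all Foxp2 nuclei the 6 markers of the thalamus list, Tcf7l2 among them, had a median ratio of 0.887 to the other excitatory nuclei.

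The share of Foxp2 nuclei varied widely between libraries of the same group, except in Ch25h+/+ Tau-. They made up 0.427, 1.12, 0.357 and 0.616% of the nuclei of the 4 Ch25h+/+ Tau+ libraries and 0.523, 0.369, 0.491 and 0.501% of the Ch25h+/+ Tau- libraries. The shares were 1.59, 0.652, 0.349 and 0.262% in Ch25h-/- Tau+ and 0.466, 1.28, 1.38 and 0.251% in Ch25h-/- Tau-. Replicate 2 of Ch25h+/+ Tau+, replicate 1 of Ch25h-/- Tau+ and replicates 2 and 3 of Ch25h-/- Tau- held over 100 nuclei each, and the groups overlapped throughout.

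Group means were 0.629% ± 0.343, 0.471% ± 0.0692, 0.714% ± 0.609 and 0.845% ± 0.569 (SD, n = 4 each) in that order. The largest difference, 0.374 percentage points higher with the loss of Ch25h in Tau- libraries, had a two-sided exact permutation p of 0.400. None of the 6 effects tested on the share passed, with exact permutation p from 0.327 to 0.945 and 0.945 for all after Benjamini-Hochberg adjustment over the 6. The smallest p that 4 libraries against 4 allow is 0.0286. How much neighbouring cortex a dissection carried and how many such neurons it held cannot be told apart here.

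The libraries with over 100 Foxp2 nuclei also held many nuclei without Rmst. The share of Foxp2 nuclei without Rmst was 36.8, 55.6, 65.2 and 47.8% in these 4 libraries, in the order above, and 18.6 to 43.5% in the other 12. By group it averaged 26.6% ± 7.74, 34.2% ± 7.77, 34.2% ± 15.6 and 39.9% ± 20.6 (SD, n = 4 each) in Ch25h+/+ with tau, Ch25h+/+ without it, Ch25h-/- with tau and Ch25h-/- without it. Counts of calls below were therefore also taken without those libraries and with this share as a covariate, both chosen after the data had been seen.

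**Figure D3:**
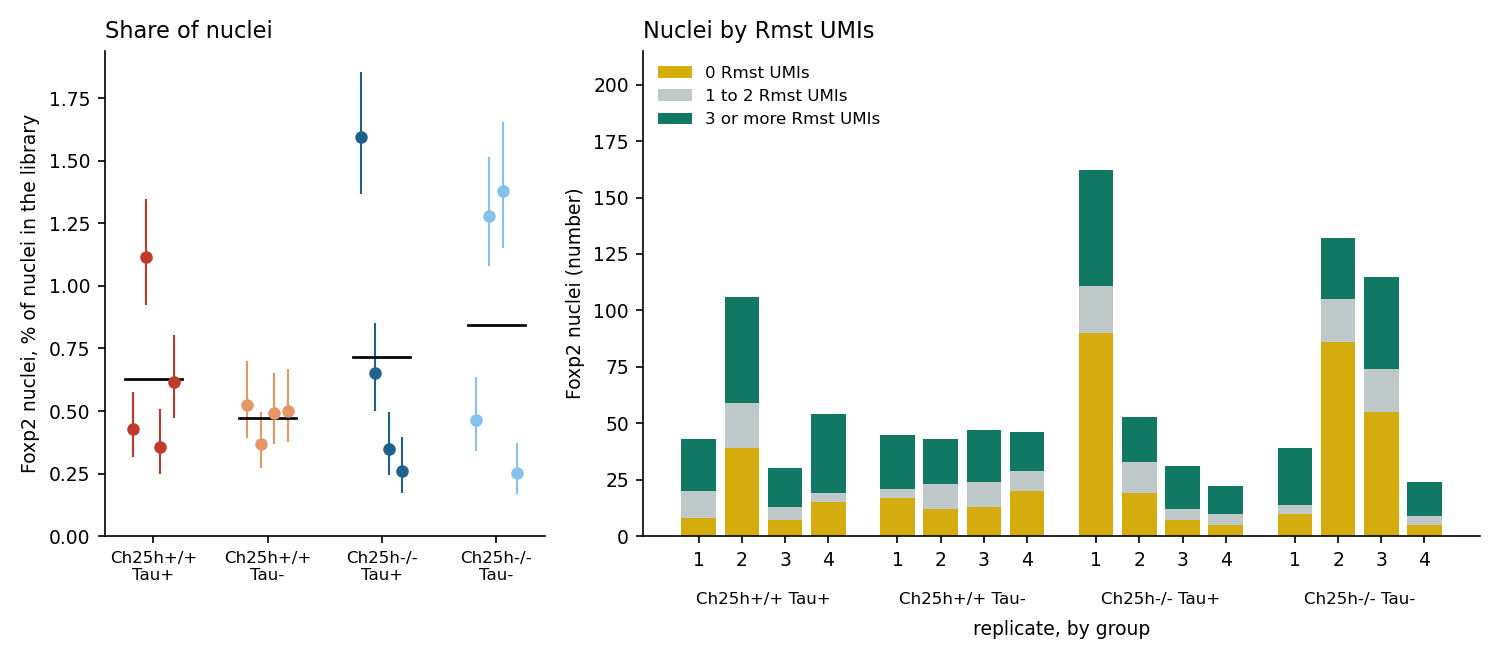
Left, the Foxp2 nuclei as a percentage of all nuclei in each library with its 95% Wilson interval, and the group mean as a black line; right, the number of Foxp2 nuclei in each library, stacked by Rmst UMIs. The 4 libraries with 106 to 162 nuclei lie in 3 groups and hold 39 to 90 nuclei with 0 Rmst UMIs, against 5 to 20 in the other 12.

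The effects of tau and of Ch25h loss on each gene were tested on UMIs summed over the Foxp2 nuclei of each library, with edgeR's quasi-likelihood test over 7076 genes. Values per library are given below in CPM scaled by edgeR's TMM factors for tested genes. Across 7 contrasts, 2 genes passed an adjusted p of 0.05: Gm43049 for tau and Bmpr1b for the loss of Ch25h.

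Gm43049, a long intergenic noncoding RNA gene on the minus strand at chr3:140692038-140760704 (mm10), had 101, 75.1, 93.7 and 88.1 CPM in the Ch25h+/+ Tau+ libraries and 0, 0, 2.91 and 0 CPM in the Ch25h+/+ Tau- libraries. In Ch25h-/- it had 78.9, 83.2, 71.1 and 69.0 CPM with Tau+ and 4.92, 0, 0 and 0 with Tau-. Every Tau+ library was far above every Tau- library, in both genotypes. Groups without overlap were seen for 3.15% of all tested genes in the Ch25h+/+ contrast and 2.36% in the Ch25h-/- contrast. The counts behind these values were 208 UMIs against 1 in Ch25h+/+, a ratio of 132 with a 95% counting interval of 23.4 to 5231, and 211 against 2 in Ch25h-/-, a ratio of 108 (29.5 to 897).

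By edgeR, the log2 fold change of Gm43049 was 6.67 ± 0.56 (SE) in Ch25h+/+ (adjusted p = 3.97e-08), 6.35 ± 0.49 in Ch25h-/- (adjusted p = 5.12e-09) and 6.51 ± 0.37 over both genotypes (adjusted p = 4.59e-12). Gm43049 was the only gene called in each of these 3 contrasts, 0.0141% of the genes tested. It passed the filter on low counts only through the Tau+ libraries, so these calls are given as a description only. Gm43049 stayed called without that filter. It was higher with Tau+ in the other excitatory classes too. Over both genotypes its log2 fold change was 9.27 in the Vwc2l Tshz2 nuclei (edgeR adjusted p = 1.65e-16) and 11.35 in CA1 nuclei (edgeR adjusted p = 6.47e-15). In these classes 0.0213% and 0.0609% of genes were called, and there too Gm43049 passed the filter only through the Tau+ libraries. Its difference between Foxp2 nuclei and CA1 nuclei was -4.34 ± 1.2 and did not pass (adjusted p = 1 by edgeR). These fitted changes rest on 0 to 2 UMIs per library on the Tau- side. The barcodes that mostly hold free RNA had 0 to 103 CPM of Gm43049 over the libraries, with a median of 20.1. Its pooled level in the Foxp2 nuclei, before TMM scaling, was 41.9 CPM.

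Neighbouring noncoding genes were too low to be tested. Gm32754, at chr3:140904998-140917459, had 35 UMIs in Ch25h+/+ Tau+ and 0 in Ch25h+/+ Tau-, at least 7.39-fold higher with the floor at 3 counts over the group, and 33 UMIs against 1 in Ch25h-/-. 4930590L14Rik, at chr3:140951876-140953247, had 11 UMIs against 0 and 8 against 0. Unc5c, a netrin receptor gene at chr3:141465216-141834924, had a mean of 253 ± 46.4 CPM in Ch25h+/+ Tau+ and 362 ± 145 in Ch25h+/+ Tau- (SD, n = 4), with overlapping libraries and a log2 fold change over both genotypes of -0.43 ± 0.15 (edgeR adjusted p = 0.885). In CA1 nuclei Unc5c fell with tau, by 0.78 on the log2 scale (edgeR adjusted p = 1.52e-06), and its difference between the classes, 0.37 ± 0.18, did not pass (edgeR adjusted p = 1). Gm43049, Gm32754, 4930590L14Rik, Unc5c and Bmpr1b lie within the same stretch of chromosome 3, from 140692038 to 142169425. Tau status is the only label that separates the libraries within a genotype. An effect of tau and any other inherited difference between Tau+ and Tau- mice cannot be told apart here.

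Bmpr1b, at chr3:141837136-142169425, encodes a type I receptor for bone morphogenetic proteins. It had 70.2, 94.0, 49.5 and 107 CPM in the Ch25h+/+ Tau- libraries and 27.1, 32.0, 19.7 and 15.6 CPM in the Ch25h-/- Tau- libraries. The lowest Ch25h+/+ value was above the highest Ch25h-/- value. Groups without overlap were seen for 2.08% of all tested genes in this contrast. By edgeR, Bmpr1b fell by 1.70 ± 0.28 (SE) on the log2 scale with the loss of Ch25h in Tau- libraries (adjusted p = 0.0111) and was the only gene called, 0.0141% of those tested.

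With Tau+ the same loss showed no such gap. Bmpr1b had 45.3, 22.6, 38.2 and 35.2 CPM in Ch25h+/+ Tau+ and 24.7, 32.9, 30.5 and 31.8 in Ch25h-/- Tau+, a log2 fold change of -0.20 ± 0.30. Only the Ch25h+/+ Tau- libraries stood high, so the tau effect in Ch25h+/+ was -1.29 ± 0.27 and did not pass (edgeR adjusted p = 0.160). It passed without replicate 3 of Ch25h+/+ Tau- (-1.45, edgeR adjusted p = 0.0371) and without a filter on low counts (-1.27, edgeR adjusted p = 0.00844). The test of the difference itself, the interaction of tau and Ch25h loss, gave 1.5 ± 0.41 and did not pass (edgeR adjusted p = 0.999). In CA1 nuclei the group means were 14.4 and 26.8 CPM with and without tau in Ch25h+/+, and 13.2 and 25.4 CPM in Ch25h-/-, so that Tau- libraries had the higher mean in both genotypes there.

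The call for Bmpr1b was lost without replicate 2 of Ch25h+/+ Tau- (log2 fold change -1.63, edgeR adjusted p = 0.0884), without replicate 4 of that group (-1.53, 0.147) and without replicate 3 of Ch25h-/- Tau- (-1.56, 0.227). It was also lost, with the fold as large or larger, without high Scrublet scores (-1.94, edgeR adjusted p = 0.0756), without nuclei with 3 or more glial UMIs (-1.88, 0.0814) and without the libraries with over 100 nuclei (-1.83, 0.158). With at least 4 Foxp2 UMIs the value was -1.63 (edgeR adjusted p = 0.327). Replicates 1 and 2 of each group alone gave -1.43 (edgeR adjusted p = 0.99982) and replicates 3 and 4 alone -2.06 (0.0632).

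**Figure D4:**
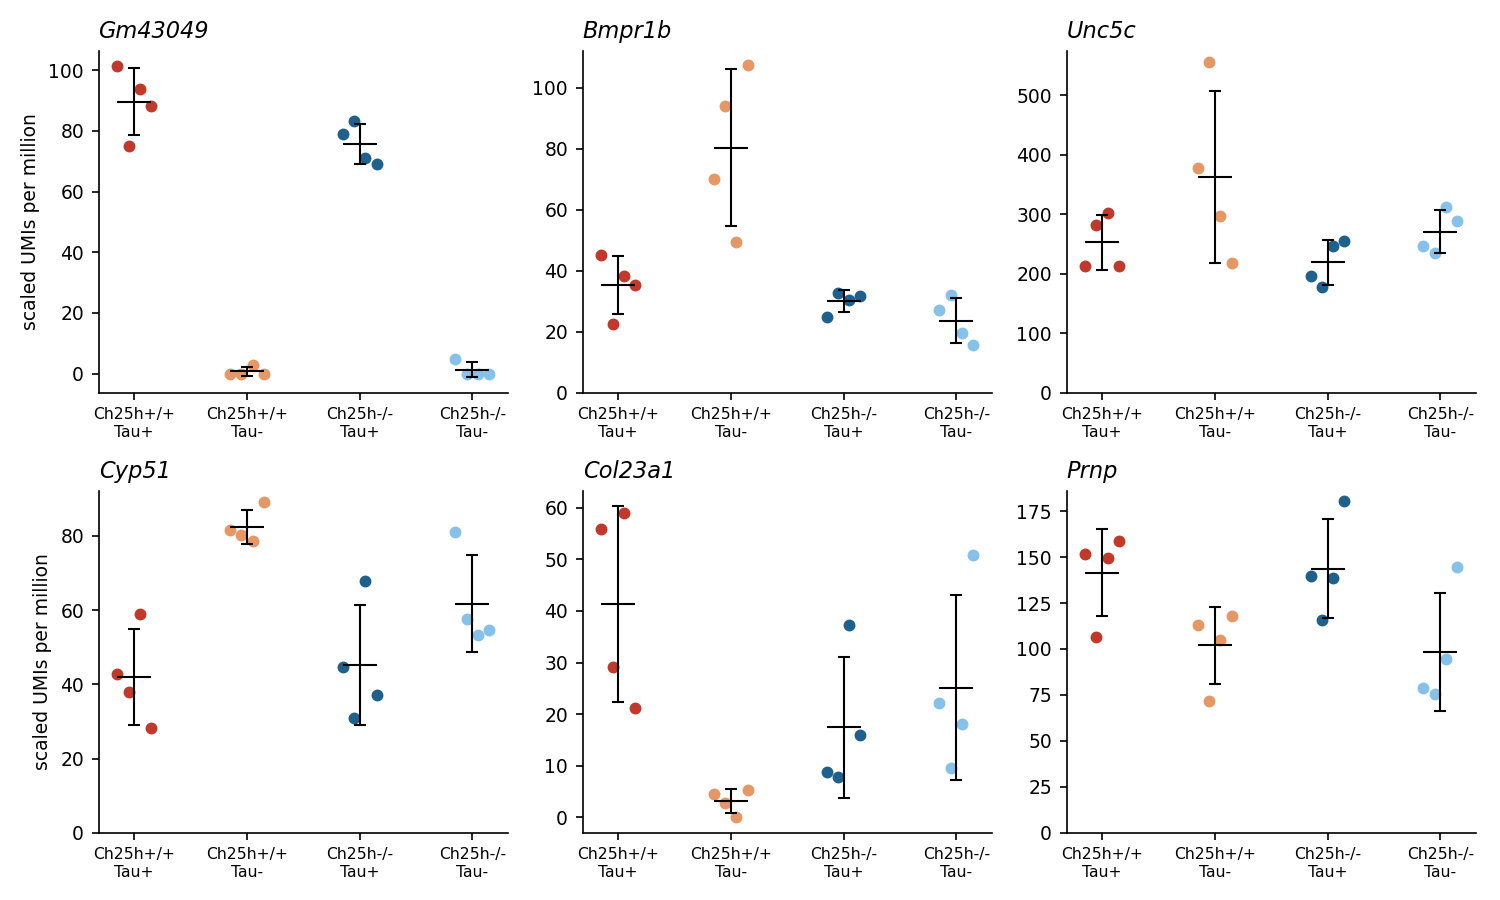
Levels of 6 genes in the Foxp2 nuclei of each library, in TMM-scaled CPM, with the mean and SD of each group of 4 libraries. Gm43049 is at 69.0 CPM or more in every Tau+ library and at 4.92 or less in every Tau- library; Bmpr1b is highest in Ch25h+/+ Tau-, and Col23a1, Cyp51, Unc5c and Prnp were not called.

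Prnp, the prion protein gene, averaged 142 ± 23.7 and 102 ± 20.8 CPM with and without tau in Ch25h+/+ and 144 ± 26.8 and 98.4 ± 31.9 CPM in Ch25h-/- (SD, n = 4 each). The log2 fold change was 0.51 ± 0.14 over both genotypes (edgeR adjusted p = 0.647). In the larger Vwc2l Tshz2 and CA1 classes Prnp was higher with tau, by 0.84 and 0.61 on the log2 scale (edgeR adjusted p = 0.0108 and 0.0115). Whether the UMIs counted as Prnp all came from the mouse gene was not tested. The difference from the Vwc2l Tshz2 nuclei was -0.33 ± 0.12 (edgeR adjusted p = 1). Mapt, the gene of mouse tau, changed by 0.07 ± 0.10. Ch25h itself had 1 UMI in all Foxp2 nuclei, in a Ch25h-/- Tau+ library, so its loss could not be checked in these nuclei.

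No gene of cholesterol synthesis and uptake passed the test, but all that were tested had lower mean levels with tau. Of 24 listed genes, 11 had enough UMIs to be tested and 0 were called, beside the 0.0141% of all genes. All 11 had a log2 fold change below 0 for tau over both genotypes, with a median of -0.41, where 50% of all tested genes were below 0. In Ch25h+/+ alone 11 of 11 were below 0 (median -0.40; all genes 51.6%) and in Ch25h-/- alone 10 of 11 (median -0.37; all genes 50.4%), the exception being Sc5d. With replicates 3 and 4 of each group alone, 6 of 11 were below 0 in Ch25h+/+ (median -0.18). Genes of a pathway are not independent of each other.

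Their summed level over all 24 genes was 362 to 691 CPM in Ch25h+/+ Tau+ and 608 to 770 in Ch25h+/+ Tau-. In Ch25h-/- it was 343 to 686 CPM with Tau+ and 661 to 745 with Tau-. The highest Tau+ library overlapped the lowest Tau- library in both genotypes. In other classes the values lay on the same side: 22 of 23 tested genes were below 0 in Vwc2l Tshz2 nuclei (median -0.21; all genes 49.9%) and 22 of 23 in CA1 nuclei (median -0.29; all genes 49.5%), where 1 was called lower. Summed microglial markers averaged 126 ± 52.9 and 96.5 ± 43.0 CPM with and without tau in Ch25h+/+ and 136 ± 32.3 and 71.5 ± 12.7 in Ch25h-/- (SD, n = 4 each), over 6 genes with none at 0 in any group. Of these, P2ry12 had 55.2 CPM pooled over the Foxp2 nuclei, 81.3 in other excitatory nuclei and 25.2 in oligodendrocyte nuclei. Whether its UMIs were microglial was not tested. Oligodendrocyte markers, also 6 with none at 0, averaged 226 ± 92.1, 182 ± 80.2, 186 ± 86.8 and 121 ± 35.3 CPM in the order of the groups. Astrocyte markers, 5 with none at 0, were lower on average with tau, at 110 ± 38.8 and 164 ± 96.1 CPM in Ch25h+/+ and 150 ± 137 and 200.1 ± 69.4 in Ch25h-/-, with overlapping libraries. The part of these lists in the differences was not tested.

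Cyp51, which encodes the lanosterol demethylase of the pathway, had the smallest p of the list. It had 42.6, 37.9, 59.0 and 28.2 CPM in Ch25h+/+ Tau+ and 81.5, 80.1, 78.7 and 89.1 in Ch25h+/+ Tau-. In Ch25h-/- the values were 44.7, 30.9, 67.7 and 37.2 with Tau+ and 81.2, 57.6, 53.2 and 54.7 with Tau-. The groups did not overlap in Ch25h+/+, as for 3.15% of all tested genes, and overlapped in Ch25h-/-. Over both genotypes the log2 fold change was -0.75 ± 0.17 (unadjusted p = 0.000176, edgeR adjusted p = 0.623). Without a filter on low counts the edgeR adjusted p was 0.0450, with a log2 fold change of -0.73. Pooled over the libraries and before TMM scaling, Cyp51 stood at 50.1 CPM in the Foxp2 nuclei. In the barcodes that mostly hold free RNA it had a median of 66.7 CPM over the libraries, from 30.3 to 85.6. How much free RNA adds to the Cyp51 values was not tested.

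Hmgcs1, which encodes a synthase early in the pathway, had a log2 fold change of -0.50 ± 0.19 over both genotypes, and the sterol oxidase gene Msmo1 -0.55 ± 0.23. Srebf2, the gene of SREBP2 itself, had -0.30 ± 0.16. None of the 3 passed by edgeR (adjusted p = 0.899 for Hmgcs1 and Msmo1, 0.979 for Srebf2).

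**Figure D5:**
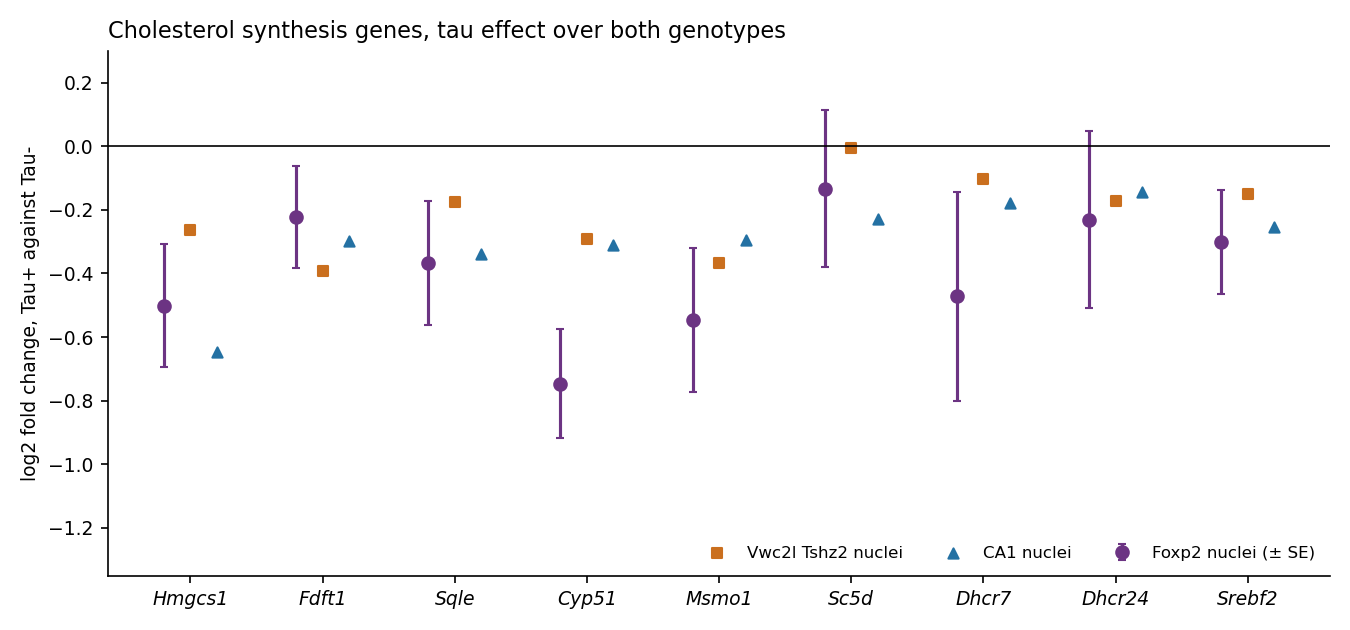
Log2 fold change of 9 of the 11 tested cholesterol genes for tau over both genotypes in the Foxp2 nuclei (points with SE), with the values in Vwc2l Tshz2 nuclei and CA1 nuclei beside them. All 9 points of the Foxp2 nuclei lie below 0, from -0.75 for Cyp51 to -0.13 for Sc5d, and none was called.

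Restricted to Foxp2 nuclei with 3 or more Rmst UMIs, a choice made after the data had been seen, Cyp51 passed. In Ch25h+/+ it ranged from 24.6 to 48.7 CPM with tau and from 92.9 to 114 CPM without it, and in Ch25h-/- from 9.76 to 58.9 CPM with tau and from 50.2 to 100 CPM without it. By edgeR over 4185 genes, the log2 fold change of Cyp51 for tau over both genotypes was -1.16 (adjusted p = 0.0289). Nkain3, which encodes a protein that interacts with the sodium pump, fell by 1.06 (adjusted p = 0.0422). With Gm43049 these were all 3 genes called, 0.0717% of those tested. Cyp51 passed the filter on low counts there mainly through the Tau- libraries, so its call is given as a description only. In nuclei without Rmst, Cyp51 did not pass the filter on low counts, with 34, 41, 58 and 74 UMIs in the groups in the same order. Its means without Rmst were 54.1 ± 28.9 CPM with tau and 61.3 ± 11.1 without it in Ch25h+/+, and 38.9 ± 9.98 and 43.4 ± 10.6 CPM in Ch25h-/- (SD, n = 4 each), differences smaller than the SDs. The difference between the ranges was not tested.

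The start regions of 2 of these genes are shown because SREBP2 acts through short elements near such starts, together with the CCAAT-binding factor NF-Y. The windows run from 250 bases before to 50 bases after the start, 5′ to 3′ on the gene's strand, from RefSeq on GRCm38.p6. Capitals mark CCAAT on either strand and, in Hmgcs1, the sterol element core TCACCCCAC at base 114 of the window. Cyp51 lies at chr5:4104648-4104947 on the minus strand and Hmgcs1 at chr13:119690101-119690400 on the plus strand.
Cyp51: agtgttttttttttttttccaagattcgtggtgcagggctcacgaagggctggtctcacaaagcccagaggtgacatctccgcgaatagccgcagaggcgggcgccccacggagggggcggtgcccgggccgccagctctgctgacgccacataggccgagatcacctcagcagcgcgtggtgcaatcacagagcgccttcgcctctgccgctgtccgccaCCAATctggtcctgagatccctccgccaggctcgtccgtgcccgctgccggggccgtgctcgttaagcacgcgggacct
Hmgcs1: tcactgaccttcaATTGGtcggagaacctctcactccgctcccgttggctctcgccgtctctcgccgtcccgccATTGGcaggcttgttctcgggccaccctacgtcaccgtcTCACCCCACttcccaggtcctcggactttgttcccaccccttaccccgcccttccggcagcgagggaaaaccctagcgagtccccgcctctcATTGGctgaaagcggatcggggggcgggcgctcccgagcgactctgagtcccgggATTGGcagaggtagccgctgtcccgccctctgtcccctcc

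Of the 24 listed genes, 16 matched an entry, and 15 of them held CCAAT on either strand, a pentamer found in 37.4% of 32851 promoter windows of this length. The 16 genes had 19 windows, and a gene was counted if any of its windows matched. Counts of genes and shares of windows thus differ in unit. The exact core TCACCCCAC, searched on both strands, was in 0.551% of all windows and in 1 of the 16 genes, and with 1 free base (TCACNCCAC) in 1.24% of all windows. A match is only a run of letters in the window, and the windows bear on no library's values.

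No other list held a called gene in any of the 7 contrasts. Immediate early genes, which neuronal activity induces, had 9 of 10 tested genes below 0 for tau over both genotypes (median -0.30), where 50% of all genes were. Genes of oxysterol synthesis and sensing had 8 of 9 below 0 (median -0.16), microtubule proteins and tau kinases 23 of 31 (median -0.09) and cytosolic ribosomal proteins 35 of 48 (median -0.10). Glutamate receptors had 13 of 19 below 0 (median -0.03) and potassium channels 27 of 40 (median -0.06). Of 38 STING and interferon genes only 4 had enough UMIs to be tested, with 3 above 0, so this pathway could hardly be read in the Foxp2 nuclei. The summed level of the immediate early genes overlapped widely, at 684 to 1054 CPM with tau and 535 to 1785 without it in Ch25h+/+. In Ch25h-/- it was 313 to 1132 CPM with tau and 398 to 1946 without it. In Vwc2l Tshz2 nuclei its means with and without tau were 670 and 614 CPM in Ch25h+/+, and 476 and 591 CPM in Ch25h-/-.

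Apart from Bmpr1b, the loss of Ch25h gave no call. No gene passed in Tau+ libraries, over both tau states or for the interaction by edgeR (0% of 7076 genes each), with 159, 219 and 210 genes at an unadjusted p under 0.05. Given as values, Cpne8, a copine gene, had 29.3, 37.1, 34.7 and 26.4 CPM in Ch25h+/+ Tau+ and 75.9, 60.0, 71.1 and 90.2 in Ch25h-/- Tau+ (log2 fold change 1.16 ± 0.26, edgeR adjusted p = 0.523). Arpc5, a subunit gene of the Arp2/3 complex that branches actin, had 50.6, 47.6, 52.1 and 37.0 against 21.2, 15.5, 23.7 and 26.5 CPM (-1.15 ± 0.26, edgeR adjusted p = 0.523). Both pairs of groups stood clear of each other, as for 2.37% of all tested genes in this contrast. Kitl, the gene of stem cell factor, had 1.48 ± 0.39 in the same contrast, and Pknox2 0.52 ± 0.12 over both tau states (edgeR adjusted p = 0.980).

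Some further genes had small unadjusted p for tau. Col23a1, a transmembrane collagen gene, had 56.0, 29.1, 59.0 and 21.1 CPM with tau and 4.53, 2.76, 0 and 5.24 CPM without it in Ch25h+/+. In Ch25h-/- the values overlapped, at 8.83, 7.74, 37.3 and 15.9 CPM with tau and 22.1, 9.60, 18 and 50.8 CPM without it. Its log2 fold change of 3.46 ± 0.71 in Ch25h+/+ did not pass by edgeR (adjusted p = 0.160) and passed by DESeq2 (adjusted p = 0.0308) and, by edgeR, without replicate 3 of Ch25h-/- Tau+ (adjusted p = 0.0483). Rheb, which encodes the small GTPase that activates mTORC1, had -0.70 ± 0.17 over both genotypes, Sparcl1, which encodes a synapse-promoting matrix protein, -0.64 ± 0.16, and Leng8 0.43 ± 0.11 (edgeR adjusted p = 0.647 for all 3). Scamp1, a secretory carrier gene, and Gm43049 were the only genes whose 8 Tau+ libraries lay wholly above the 8 Tau- libraries, 0.0283% of those tested. Scamp1 was chosen after its values were seen: its log2 fold change was 0.34 ± 0.14 (edgeR adjusted p = 0.899).

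Whether these responses differed from those of other excitatory nuclei was tested gene by gene against the Vwc2l Tshz2 nuclei (6073 nuclei) and the CA1 nuclei (7967 nuclei), with each library as a block. By edgeR, 0 of 12554 and 0 of 14275 genes passed for tau over both genotypes, with 484 and 600 genes at an unadjusted p under 0.05. For the loss of Ch25h over both tau states 0 passed in either comparison, with 537 and 597 genes at an unadjusted p under 0.05. For Cyp51 the difference from the Vwc2l Tshz2 nuclei in the tau effect was -0.45 ± 0.17 and for Bmpr1b the difference in the effect of Ch25h loss was -0.95 ± 0.32 (edgeR adjusted p = 1 for both). No response was thus shown to be particular to the Foxp2 nuclei.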

How the data were processed

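Nuclei had been isolated from hippocampus and sequenced with 10x Genomics Chromium 3' v3.1 chemistry, per the labels' protocols. The deposited matrices hold raw UMI counts per gene and barcode, mapped to mm10 with Cell Ranger 3.1.0 per the submitters' processing notes. The file headers name Cell Ranger 4. All barcodes are present, and how introns and strand were counted is not given in the sources used here, so antisense and overlapping genes such as Gm45904 cannot be told apart from their partners. The members, gene lists and markers were chosen with earlier results of these data known.

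Nuclei passing the rule were summed per library as counts. edgeR 4.0.16 (R 4.3.3) was run with TMM scaling, filterByExpr by group, robust quasi-likelihood dispersion and Benjamini-Hochberg adjustment over all 7076 genes, with all 4 groups in the fit. Differences between classes were fitted with the library as a block. The Vwc2l Tshz2 nuclei held at least 3 Vwc2l UMIs, and CA1 nuclei were gated on Mpped1, Fibcd1 and Wfs1. Both gates, and that of the CA3 nuclei, allowed at most 1 Foxp2 UMI. The Ccn2 gate set no limit on Foxp2. Shares of nuclei were compared with exact permutation tests. Doublets were not removed from the 992 nuclei. Leaving out the highest Scrublet scores removed 113 of them (11.4%, against 7.47% of all nuclei), and 246 held at least 3 UMIs summed over glial and endothelial markers. Gene positions come from GENCODE M21, which matched 32158 of 32285 gene IDs. Genes were named by rule: up to 10 called genes in each direction, the 5 with the smallest p where fewer than 5 were called, 25 leading genes, and fixed lists. Values of a few listed genes are not reported here. Scripts were tested on simulated data: of 200 genes changed in the tau contrast over both genotypes, 40%, 84%, 90% and 94% were recovered at 1.5, 2, 4 and 8-fold, with 8 false calls. The alternatives were DESeq2 1.42.0, RLE scaling, no filter on low counts, each library left out, replicates 1 and 2 or 3 and 4 alone or as a block, stricter nucleus rules, and 4 settings added after the data were seen.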

Additional observations from a re-analysis of the deposited data

Results flagged for a closer look

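In 5 of 88 groups of 4 libraries checked, 1 library lay far from the others by Dixon's test. Chance gives about 1 in 20. Values are TMM-scaled CPM. Gm43049 had 2.91 CPM in Ch25h+/+ Tau- replicate 3 and 4.92 CPM in Ch25h-/- Tau- replicate 1, where the other libraries of each group had 0. These values are 1 and 2 UMIs. Cyp51 had 81.2 CPM in Ch25h-/- Tau- replicate 1, against 53.2 to 57.6 CPM in the others of that group. Foxp2 had 802 CPM in Ch25h+/+ Tau+ replicate 1, against 510 to 546 CPM. Its counts chose the nuclei, so this flag is given as a description only. Sox2ot, a noncoding RNA gene that overlaps Sox2, had 0 CPM in Ch25h-/- Tau- replicate 4, against 6.40 to 7.38 CPM. The Foxp2 nuclei of that replicate held only 271083 UMIs, so this value lies at the floor of counting.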

How the results depend on the processing

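Of 35 results for single genes, recomputed 987 times in all under the alternatives, none changed direction, 9 calls of Bmpr1b were lost and 17 values became calls. Gm43049 stayed called in each of its 3 tau contrasts under all 30 alternatives. Counts of called genes below are for tau in Ch25h+/+, tau in Ch25h-/-, tau over both, loss of Ch25h in Tau+, in Tau- and over both, and the interaction; the values reported were 1, 1, 1, 0, 1, 0 and 0. Without a filter on low counts they were 10, 12, 20, 3, 6, 0 and 6, and 7, 6, 7 and 9 genes differed in their response from other classes (tau and loss against Vwc2l Tshz2 nuclei, then against CA1 nuclei), in place of 0. With replicates 1 and 2 alone, tau in Ch25h-/- and over both gave 2 calls each, loss in Tau- 0 and the interaction 1. With replicates 3 and 4 alone, tau gave 6, 2 and 3 and the interaction 2. DESeq2 gave 2 for tau in each genotype. Loss in Tau- gave 0 without high Scrublet scores, with 4 Foxp2 UMIs, without nuclei with glial UMIs, and, added after seeing the data, in either Rmst range and without the libraries with over 100 nuclei, where tau in Ch25h+/+ gave 2, loss in Tau+ 1 and the interaction 1. With the share of nuclei without Rmst as a covariate, tau in Ch25h+/+ and over both gave 2, and with 3 or more Rmst UMIs tau over both gave 3. The cause was not tested.

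Leaving out 1 library gave 1 to 3, 1, 1 to 2, 0, 0 to 1, 0 and 0 calls. The 3 calls for tau in Ch25h+/+ and the 2 over both came without replicate 3 of Ch25h+/+ Tau- (Ror2 joined in both, and Bmpr1b in Ch25h+/+), and 2 calls in Ch25h+/+ without replicate 3 of Ch25h-/- Tau+. Differences between classes gave 0 to 1, 0 to 1, 0 to 2 and 0 to 1. The tau difference in share over both genotypes reversed at -0.0227 points after thinning and -0.00236 without high Scrublet scores, and the effect of loss in Tau+ at -0.0479 after thinning. Without 1 library the 6 share differences ranged from -0.00409 to 0.249, -0.423 to 0.0483, -0.132 to 0.103, -0.208 to 0.247, 0.195 to 0.571 and 0.0829 to 0.328 points, in the order tau in Ch25h+/+, in Ch25h-/-, over both, loss in Tau+, in Tau-, over both. The median of the cholesterol genes for tau over both ran from -0.65 (3 or more Rmst UMIs) to -0.24 (replicates 3 and 4 alone), and in Ch25h+/+ it was -0.65 and -0.18 with replicates 1 and 2 or 3 and 4 alone. Replicates 1 and 2 lay apart from 3 and 4 on the first principal component in 15 of 16 libraries; with this split as a block every count was the same. No paired analysis was possible because the labels give no replicate numbers.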
